A study of Caenorhabditis elegans with 30 samples.

Results

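The genes described here are 10 C. elegans genes that encode histone acetyltransferases with a known or possible role at lysine 16 of histone H4 (H4K16), members of their complexes and a deacetylase that removes acetyl groups. They were chosen by name from the 46170 genes of the expression table: mys-1, mys-2, mys-4, lsy-12, mrg-1, trr-1, ssl-1, epc-1, cbp-1 and sir-2.1. The study asked whether the acetyltransferase MYS-1 contributes to an open, highly expressed X chromosome. Messenger RNA was sequenced from whole L3 larvae, 24 h after plating, in 4 groups: 5 libraries of XO animals labelled mys-1(RNAi), 5 libraries of XO animals fed vector RNAi, 4 libraries of dpy-21(e428) XX hermaphrodites and 4 libraries of wild-type XX hermaphrodites. H4K16ac was mapped by ChIP-seq in 3 XO and 3 wild-type XX replicates, each with an input library.

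The XO animals were strain TY1072 by their labels, although a supplementary table of the study names TY1073 and TY1074 for XO ChIP replicates 2 and 3, which are 2 of the 3 replicates behind the pooled XO peak list. By genotype the XO animals carry the sdc-2(y74) allele on X and the her-1(e1520) allele on chromosome V, have a single X chromosome and develop as hermaphrodites. Both XO RNA groups therefore carry the same mutations. The dpy-21 mutants were strain EKM71 and lack a member of the dosage compensation complex, which represses the X chromosomes of XX animals. Wild type was the N2 Bristol strain. RNAi was delivered by feeding bacteria that make double-stranded RNA over more than one generation, whereas stocks were kept on ordinary food bacteria. XO karyotype, strain and RNAi food thus cannot be told apart in a comparison of XO vector RNAi with wild type. All material came from whole worms, so a difference in RNA per cell and a difference in the number of cells of a type cannot be told apart either.

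Acetylation of H4K16 loosens the packing of nucleosomes and is found at active genes. In Drosophila males the acetyltransferase MOF places it along the X chromosome as part of the MSL complex, and in yeast and mammals the Tip60/NuA4 complex acetylates histone H4 at promoters. Among the genes described here, mys-1 encodes the homolog of Tip60, mys-2 the closest homolog of MOF, mys-4 another MYST family acetyltransferase, and lsy-12 a MYST acetyltransferase of the MOZ/MORF type. The complex partners are mrg-1 (homolog of the chromodomain protein MRG15), trr-1 (TRRAP), ssl-1 (the Domino/p400 chromatin remodelling ATPase) and epc-1 (Enhancer of Polycomb). Finally, cbp-1 encodes the CBP/p300 acetyltransferase, which belongs to another enzyme family, and sir-2.1 encodes the NAD-dependent deacetylase related to yeast SIR2 and mammalian SIRT1.

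Expression values are RPKM, read numbers scaled to transcript length and to library size, deposited as 1 mean per group. No value per library was used. The spread between replicates is therefore not known from these values, no test between groups was run on them, and every ratio is a description of group means. The authors' own test results were deposited as well and are not used here. Depth of the libraries is not given in these files and is unknown here. The strain labels were checked against RNA levels. The sex determination gene her-1 was at 428.4 RPKM in XO animals labelled mys-1(RNAi), 434 in XO vector RNAi, 9.66 in dpy-21 and 1.70 in wild type, and the dosage compensation gene sdc-2 was at 0.0712, 0.0509, 4.96 and 4.03 RPKM in the same groups. The e428 allele was not visible in dpy-21 RNA, which was at 30.1 RPKM in dpy-21 mutants and 29.6 in wild type, but X-linked genes had a median log2 ratio of 0.52 between these groups against -0.01 for autosomal genes. Genes of sperm (6 listed) and of yolk made by the adult intestine (6 listed) were all below 1 RPKM in all 4 groups, with the sperm genes msp-3 and msp-19 at 0, while all listed intestine, body muscle and neuron markers were above it.

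The target of the RNAi was examined first. The mean level of mys-1 was 51.7 RPKM in XO animals labelled mys-1(RNAi), against 15.7 RPKM in XO animals fed vector RNAi. The dpy-21 mutants had 14.5 RPKM and wild-type XX animals 14.3 RPKM. The group labelled as depleted of mys-1 thus had 3.30 times as much mys-1 RNA as its vector control, and the other 3 groups lay close to each other. A lower RNA level, which RNAi commonly gives, was thus not seen, and the group is referred to by its label, as labelled mys-1(RNAi). The RNA level alone does not test the depletion. The study assessed MYS-1 protein by western blot in L3 worms fed for its RNA-seq samples, and describes a loss of detectable protein. That measurement lies outside the values used here. Where along the gene the reads lay was not analysed here. Reads from the fed double-stranded RNA, if any were sequenced, cannot be told apart in these values from reads of the worm's own mys-1 messenger.

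All 10 genes lay on autosomes, of which chromosome III held 4, I and V held 2 each, and II and IV held 1 each. Each was above 1 RPKM in all 4 groups. In wild type they ran from 8.24 RPKM (mys-4) to 67.9 RPKM (epc-1) with a median of 17.02, against a median of 12.99 RPKM over the 14362 genes above 1 RPKM, and 7 of 10 were above that median. The partner genes other than trr-1, and cbp-1, made up the upper end, and the MYST acetyltransferases and trr-1 the lower end. In order, wild type had epc-1 at 67.9 RPKM, cbp-1 at 44.7, ssl-1 at 38.2, mrg-1 at 35.6, sir-2.1 at 19.1, lsy-12 at 15.0, mys-1 at 14.3, mys-2 at 12.3, trr-1 at 9.18 and mys-4 at 8.24. Without a spread between libraries, neighbours in this order such as lsy-12 and mys-1 cannot be said to differ. In XO animals labelled mys-1(RNAi), mys-1 held rank 3 among the 10 genes, against rank 7 in XO vector RNAi.

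**Figure D1:**
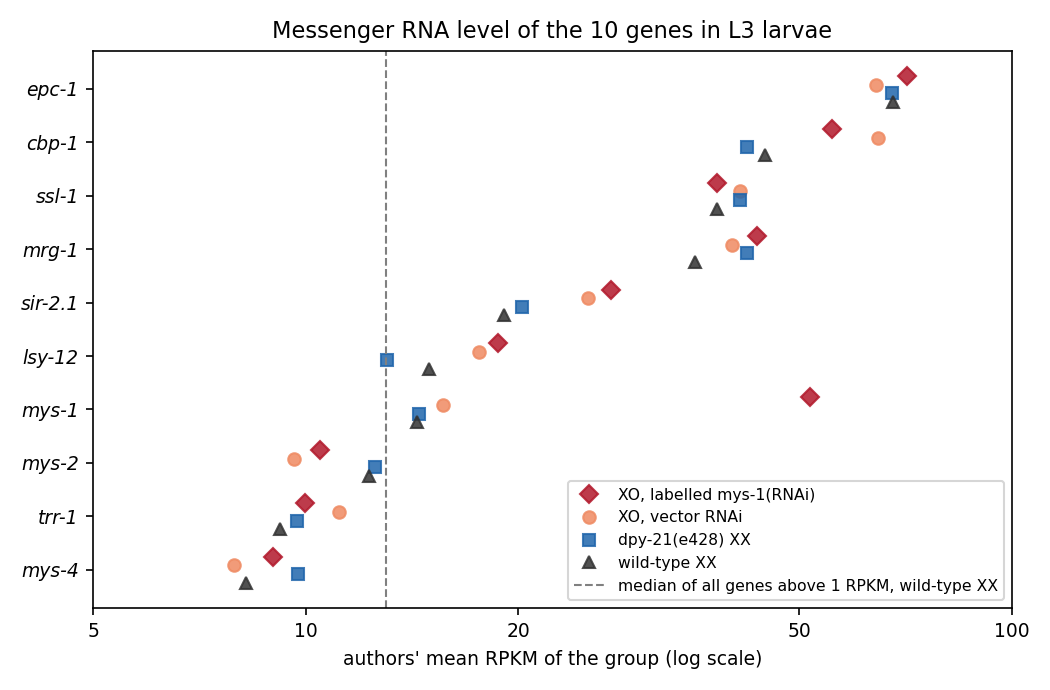
Mean RPKM of each gene (horizontal axis, log scale) in the 4 groups of L3 larvae, with genes ordered by their level in wild-type XX and a dashed line at the wild-type median of 12.99 RPKM. The points of a gene lie near each other except for mys-1, which was at 51.7 RPKM in XO labelled mys-1(RNAi) and between 14.3 and 15.7 RPKM in the other 3 groups.

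The chromatin state of the genes themselves was read from the H4K16ac peak lists, which hold 15186 peaks in XO and 8734 in wild-type XX. Each list was called on all replicates of a background together and gives positions alone, so peaks cannot be compared in height or between replicates. A promoter peak is a peak that reaches into the 500 bp upstream of the annotated gene start by at least 1 bp. All 10 genes had a promoter peak in the XO list, where 65.1% of the autosomal genes above 1 RPKM had one. In the wild-type XX list 7 of 10 had one, where the share of autosomal genes was 63.6%. The 7 genes with a promoter peak in both lists were mys-4, all 4 partner genes, cbp-1 and sir-2.1, and in each of them the whole 500 bp lay inside peaks in both backgrounds. The other 3 genes, mys-1, mys-2 and lsy-12, all of the MYST family, had a promoter peak in the XO list alone, as did 7.96% of the 11343 autosomal genes above 1 RPKM in both backgrounds. Of those genes, 60% had a promoter peak in both lists and 4.56% in the wild-type XX list alone, a class with 0 of the 10 genes.

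These 3 peaks covered only part of the promoter. At mys-1 (chrV:7081545-7084662, minus strand, WBcel235) the XO list held 1 peak of 255 bp at chrV:7084542-7084796, from 134 bp before to 120 bp after the gene start, and the wild-type XX list held none within 1 kb of the gene. At lsy-12 (chrV:9846157-9859963, minus strand) the XO peak of 604 bp ran from 837 to 234 bp before the start and covered 267 of the 500 bp. At mys-2 the XO peak of 7691 bp ended 405 bp before the start and covered 96 of the 500 bp, and the wild-type XX list had a peak of 566 bp that ended 680 bp before the start. The start of mys-2 lies only 100 bp behind the end of fld-1 on the same strand, so much of its 500 bp lies in that neighbour, and the same holds for sir-2.1, which lies 103 bp behind pges-2. In wild type mys-1, mys-2 and lsy-12 were at 14.3, 12.3 and 15.0 RPKM. Of the genes whose promoters were wholly inside peaks in both lists, mys-4 and trr-1 were lower, at 8.24 and 9.18 RPKM. The others, sir-2.1, mrg-1, ssl-1, cbp-1 and epc-1, were higher, from 19.1 to 67.9 RPKM. A part of expression level in these peaks was not tested.

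The bases that the peaks did or did not reach are shown for 4 genes, 2 with a promoter peak in the XO list alone (mys-1 and lsy-12) and 2 with the promoter wholly inside peaks in both lists (mrg-1 and cbp-1). Each sequence is the 250 bases before the gene start in WBcel235, 5′ to 3′ on the strand of the gene, with the last base next to the start. Capitals mark bases inside a peak of the XO list.
mys-1, chrV:7084663-7084912, minus strand: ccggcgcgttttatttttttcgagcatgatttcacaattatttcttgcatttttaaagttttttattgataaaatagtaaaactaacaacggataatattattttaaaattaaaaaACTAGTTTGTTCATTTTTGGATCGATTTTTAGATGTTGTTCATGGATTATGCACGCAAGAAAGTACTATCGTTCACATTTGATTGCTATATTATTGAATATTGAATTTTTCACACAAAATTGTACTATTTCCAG
lsy-12, chrV:9859964-9860213, minus strand: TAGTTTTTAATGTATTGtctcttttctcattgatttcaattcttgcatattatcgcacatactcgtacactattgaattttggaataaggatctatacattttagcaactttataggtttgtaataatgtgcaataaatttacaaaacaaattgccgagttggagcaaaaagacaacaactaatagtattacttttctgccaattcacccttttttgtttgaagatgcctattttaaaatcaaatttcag
mrg-1, chrIII:12874657-12874906, minus strand: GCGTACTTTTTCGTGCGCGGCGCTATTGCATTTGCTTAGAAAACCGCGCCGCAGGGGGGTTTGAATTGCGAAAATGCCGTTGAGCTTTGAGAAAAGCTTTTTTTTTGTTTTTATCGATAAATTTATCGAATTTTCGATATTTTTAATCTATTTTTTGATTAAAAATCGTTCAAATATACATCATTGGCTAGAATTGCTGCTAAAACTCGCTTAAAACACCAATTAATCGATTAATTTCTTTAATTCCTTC
cbp-1, chrIII:9766259-9766508, plus strand: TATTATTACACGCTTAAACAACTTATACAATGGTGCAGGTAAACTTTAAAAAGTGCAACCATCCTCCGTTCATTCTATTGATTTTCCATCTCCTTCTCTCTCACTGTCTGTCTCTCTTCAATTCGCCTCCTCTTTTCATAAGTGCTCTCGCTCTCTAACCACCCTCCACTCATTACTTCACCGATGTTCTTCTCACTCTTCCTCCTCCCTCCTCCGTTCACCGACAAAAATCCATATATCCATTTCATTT
In the XO list, 134 bases of the mys-1 sequence and 17 bases of the lsy-12 sequence were inside a peak, and in the wild-type XX list 0 bases of either. All 250 bases of mrg-1 and of cbp-1 were inside peaks in both lists.

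The 4 sequences differ in base composition. The mys-1 sequence had a GC content of 26.0%, the lowest of the 10 genes, and lsy-12 had 28.4%, whereas mrg-1 had 34.0% and cbp-1 41.2%. Over 14199 genes the same window had a median of 33.6%, with the middle of the distribution between 30 and 38%. The upstream sequence of ssl-1 was at 28.4% as well, and lay wholly inside peaks in both lists. A link between base composition and peak cover was not tested. The lsy-12 sequence ends in TTTCAG directly at the annotated gene start. TTTCAG is the consensus of the worm splice acceptor, which also serves trans-splicing, the step that joins a short leader RNA to the front of many worm messengers, so that an annotated start can be a splice site and transcription can begin further upstream. On the strand of the gene, TTTCAG was present in 5 of 10 windows (mys-2, mys-4, lsy-12, trr-1 and ssl-1) and in 31.1% of the windows of all genes, and on either strand in 5 of 10 and in 43.9%.

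Across the gene bodies the 10 genes ranged from almost free of peaks to wholly inside them. The share of the gene span inside peaks was 3.88% in XO and 0% in wild-type XX for mys-1, and 100% in both for trr-1. The median of the 10 genes was 67.5% in XO and 31.9% in wild-type XX, against medians of 58.8% in XO and 62.1% in wild-type XX for autosomal genes above 1 RPKM, and 6 of the 10 genes in XO and 4 in wild-type XX were above those. The share was higher in XO for 6 genes, where 26.2% of autosomal genes were higher, lower in XO for 3 genes, where 21.2% were lower, and the same for trr-1.

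The largest differences between the lists were at cbp-1 and epc-1. The span of cbp-1 (chrIII:9766509-9774825, plus strand) was 100% inside peaks in XO and 27.5% in wild-type XX, a difference of 72.5 percentage points that only a small share of autosomal genes exceeded (percentile 98.3 of 11343 genes). In XO 1 peak of 94142 bp, from 24967 bp before to 69174 bp after the gene start, covered the gene and its neighbours, while in wild-type XX peaks of 27102 and 60974 bp left a gap of 6031 bp over most of the gene body and ended at nearly the same outer positions, 24897 bp before and 69209 bp after the start. For epc-1 (chrIII:12599630-12608586, minus strand) the share was 72.9% in XO and 18.3% in wild-type XX (percentile 97.0). Here both lists had a peak that began 1398 bp (XO) and 1400 bp (wild-type XX) before the start, but it reached 4443 bp into the gene in XO and 1640 bp in wild-type XX, and XO had a further peak of 2084 bp in the gene.

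The remaining genes differed less. For mrg-1 (chrIII:12871029-12874656, minus strand) the share was 100% in XO and 81.7% in wild-type XX, the difference being a gap of 664 bp between 2 wild-type peaks. The long gene ssl-1 (chrIII:12714566-12744721, plus strand) had nearly the same peak over its start in both lists, of 6880 bp in XO and 6891 bp in wild-type XX, and 7 further peaks of 244 to 1330 bp in the gene in XO against 1 of 419 bp in wild-type XX. Its share was 20.4% in XO and 5.70% in wild-type XX. The share for mys-2 (chrI:14118751-14127202, plus strand) was 18.0% in XO and 3.27% in wild-type XX. It was lower in XO than in wild-type XX at mys-4 (chrI:8333082-8336727, plus strand; 62.2 against 73.3%), at lsy-12 (25.1 against 36.4%) and at sir-2.1 (chrIV:10363318-10366229, minus strand; 77.1 against 100%, through a gap of 667 bp in XO). At trr-1 (chrII:11661569-11675927, minus strand) a peak of 22418 bp in XO and of 55188 bp in wild-type XX held the whole gene. Autosomal peaks had a median width of 955 bp in XO and 1352 bp in wild-type XX, and whether this touched the shares given here was not tested.

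**Figure D2:**
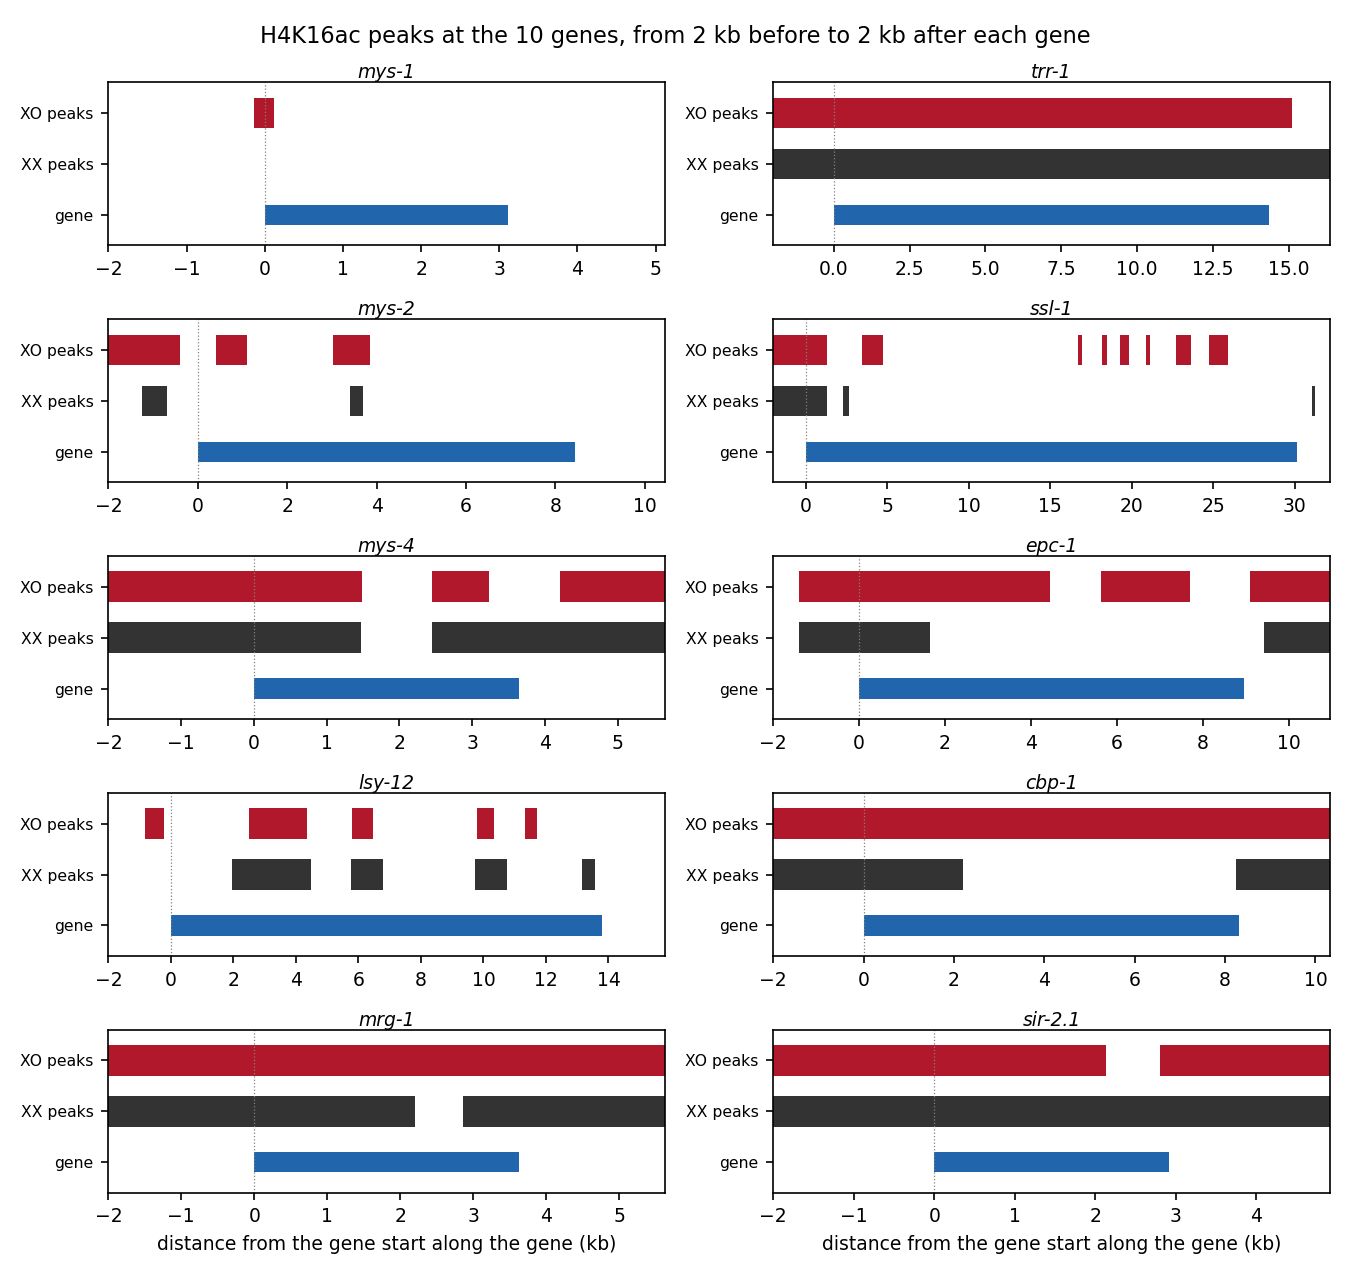
H4K16ac peaks of the XO list (upper row) and the wild-type XX list (middle row) at each of the 10 genes (lower row), drawn along the gene in kb from its start and cut off 2 kb to either side. The mys-1 panel holds the single XO peak of 255 bp, and the cbp-1 panel holds the gap of 6031 bp in the wild-type XX list.

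**Figure D3:**
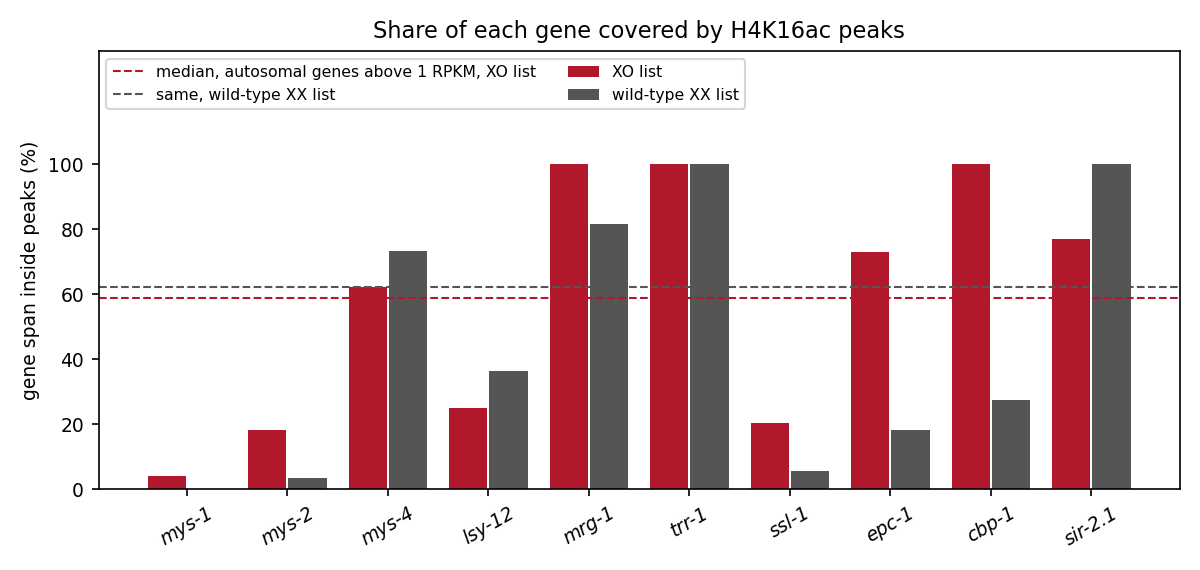
Percent of each gene's span inside H4K16ac peaks, XO list left and wild-type XX list right, with dashed lines at the medians of autosomal genes above 1 RPKM (58.8% in XO and 62.1% in wild-type XX). The bars of cbp-1 are at 100% in XO and 27.5% in wild-type XX, and the bar of mys-1 is at 3.88% in XO and 0% in wild-type XX.

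RNA ratios between groups were taken as log2 of (RPKM + 1), which understates the change of low genes, and a gene was counted when it differed by over 1.5-fold on that scale. Between XO animals labelled mys-1(RNAi) and XO vector RNAi, mys-1 was the only 1 of the 10 genes counted as higher, where 5.28% of the 15785 genes that passed the filter were higher, and 0 were counted as lower, where 3.6% of genes were. The log2 ratio of mys-1 was 1.66, with 271 genes above it (percentile 98.3). The other 9 genes lay between -0.21 (cbp-1) and 0.17 (mys-4), in a comparison whose median over all genes was 0.02.

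The levels of the other 9 genes in the XO groups differed by less than 1.5-fold. Among the MYST genes, mys-2 was at 10.5 RPKM in XO labelled mys-1(RNAi) and 9.61 in XO vector RNAi, mys-4 at 8.997 and 7.91, and lsy-12 at 18.7 and 17.6. Among the partners, mrg-1 was at 43.6 and 40.2 RPKM, epc-1 at 71.1 and 64.3, ssl-1 at 38.2 and 41.2, and trr-1 at 9.97 and 11.1 in the same order of groups. The gene cbp-1 was at 55.7 RPKM in XO labelled mys-1(RNAi) and 64.6 in XO vector RNAi, and sir-2.1 was at 27.1 and 25.1.

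The surroundings of mys-1 were examined as well. Its end overlaps the end of npa-1, which encodes a secreted lipid-binding polyprotein of nematodes and lies on the opposite strand, by 36 bp. The libraries were not stranded, so reads in the overlap cannot be assigned. The level of npa-1 was 433 RPKM in XO labelled mys-1(RNAi) and 314 in XO vector RNAi (log2 ratio 0.46). It was 389 RPKM in dpy-21 and 404 RPKM in wild type. A part of npa-1 reads in the mys-1 values was not tested. Within 20 kb of mys-1, 9 of 23 other genes passed the filter, with log2 ratios from -0.25 to 0.46 and 0 past 1.5-fold. The genes closest to mys-1 in their pattern over the 4 group means, by Euclidean distance of centred log2 values among 13187 genes above 1 RPKM in all groups, were pho-9 on chromosome III (distance 0.35), F26D11.15 on V (0.41) and C33B4.9 on II (0.47). For example, pho-9 was at 33.8 RPKM in XO labelled mys-1(RNAi) and 12.4 in XO vector RNAi, with 9.01 in dpy-21 and 12.1 in wild type.

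**Figure D4:**
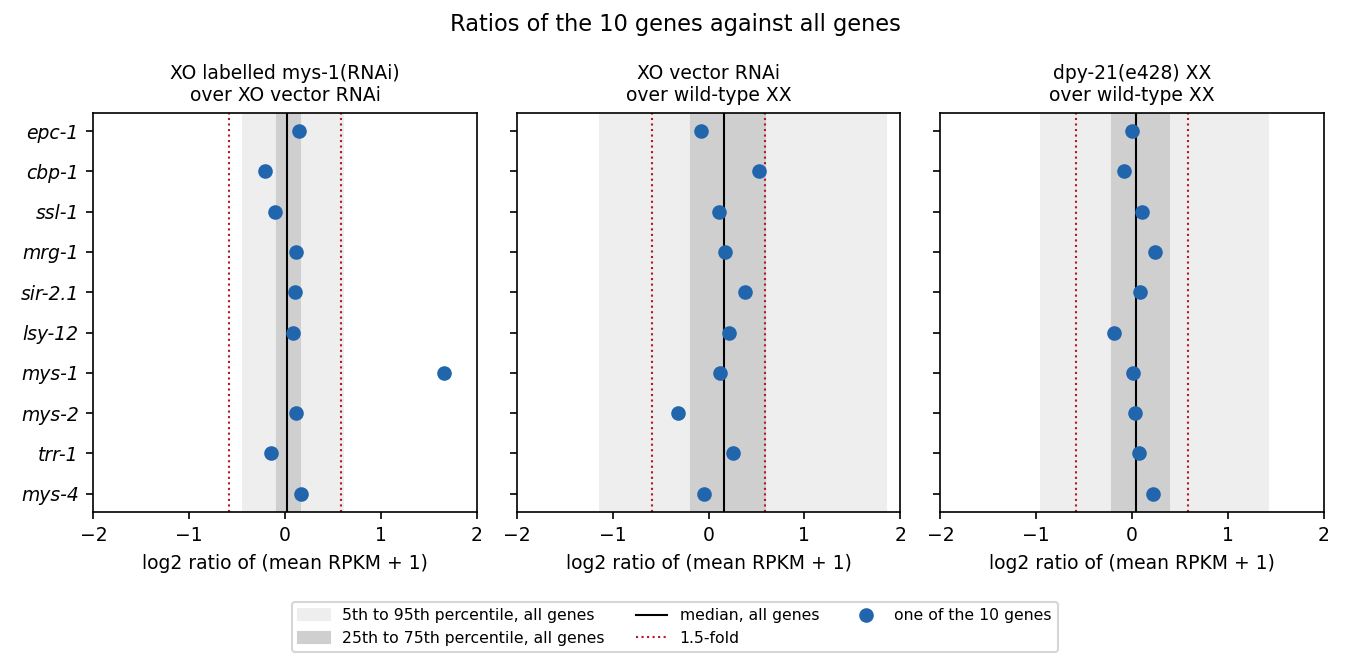
Log2 ratio of (mean RPKM + 1) of each gene (points) in the 3 comparisons, with the median (line) and the ranges (grey) of all genes that passed the filter. In the left panel mys-1 is at 1.66 and the other 9 genes lie between -0.21 and 0.17, while in the middle and right panels all 10 genes are inside the dotted 1.5-fold marks.

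Between XO vector RNAi and wild-type XX, 0 of the 10 genes were counted as higher or lower, where 25.2% of 15240 genes were higher and 11.1% lower. This comparison was the broadest of the 3 and had a median of 0.17 over all genes, so that a gene at 0 lies below most genes. The 10 genes ran from -0.32 to 0.52 with a median of 0.14, and 5 of them were above the median of all genes. After that median was subtracted, the ratios of mys-1 and ssl-1 changed sign, with -0.05 in place of 0.12 for mys-1 and -0.06 in place of 0.11 for ssl-1, and mrg-1 was at 0.00.

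The gene nearest to the 1.5-fold mark was cbp-1. It was at 64.6 RPKM in XO vector RNAi and 55.7 RPKM in XO labelled mys-1(RNAi), against 42.2 RPKM in dpy-21 and 44.7 RPKM in wild type, so that both XO groups were above both XX groups. The log2 ratio of XO vector RNAi over wild type was 0.52 (0.36 after the median was subtracted). A short noncoding RNA of 81 bp, R10E11.13, lies wholly in an exon of cbp-1 on the same strand, and its listed levels had the same order between XO and XX: 1038 RPKM in XO labelled mys-1(RNAi), 1233 in XO vector RNAi, 833 in dpy-21 and 722 in wild type. Reads of the 2 genes cannot be told apart there. Both the RNA level and the peak cover of cbp-1 were higher in XO than in wild-type XX. Before the median was subtracted, both measures also had the same sign at mrg-1 (18.3 percentage points, RNA ratio 0.17) and ssl-1 (14.7, 0.11). The same held for mys-1 (3.88, 0.12) and mys-4 (-11.1, -0.05). The signs were opposite at epc-1 (54.6, -0.08), mys-2 (14.8, -0.32), sir-2.1 (-22.9, 0.38) and lsy-12 (-11.3, 0.22). At trr-1 the cover did not differ. A link between peak cover and RNA level was not tested. The labels of the XO ChIP libraries name no RNAi.

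The deacetylase gene sir-2.1 likewise was at 27.1 and 25.1 RPKM in XO labelled mys-1(RNAi) and XO vector RNAi, against 20.2 RPKM in dpy-21 and 19.1 RPKM in wild type. Its ratio of XO vector RNAi over wild type was 0.38 (0.21 after subtraction). In the other direction, mys-2 was at 10.5 and 9.61 RPKM in the XO groups and 12.5 and 12.3 RPKM in dpy-21 and wild type, a ratio of -0.32 (-0.49 after subtraction), the lowest of the 10 genes. lsy-12 was at 18.7 and 17.6 RPKM in the XO groups, against 13.05 in dpy-21 and 15.0 in wild type. The remaining genes had small ratios: trr-1 0.25, mrg-1 0.17, mys-1 0.12, ssl-1 0.11, mys-4 -0.05 and epc-1 -0.08.

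Markers of several tissues differed in the same comparison. The summed level of 3 body muscle markers was 2355 RPKM in XO vector RNAi and 1258 in wild type, and each of the 3 was higher in XO. The sums of the other lists hide members that differed in opposite directions. For 10 germ line markers the sum was 89.2 RPKM in XO vector RNAi and 69.7 in wild type. In these groups glh-1 was at 39.7 and 29.9, and mex-5 at 6.81 and 2.12. Of these markers, glp-1 (5.37 and 5.62), him-3 (3.02 and 3.45) and rec-8 (6.70 and 6.92) were lower in XO. For 4 intestine markers the sum was 543 RPKM in XO vector RNAi and 427 in wild type, with vha-6 at 245 and 136 but elt-2 at 15.8 and 22.9. For 3 hypodermis markers it was 1014 and 1373, with rol-6 at 640.1 and 1143 but dpy-7 at 374 and 230. For 4 neuron markers it was 329 and 326, with snb-1 at 225 and 244 but unc-17 at 19.6 and 10.3, and unc-119 and rab-3 also higher in XO. The part of tissue makeup in the ratios of cbp-1, sir-2.1, lsy-12 and mys-2 was not tested. Between XO labelled mys-1(RNAi) and XO vector RNAi most of these sums were closer, with 2240 and 2355 for body muscle, 591 and 543 for intestine, 96.8 and 89.2 for germ line, and 1109 and 1014 for hypodermis. The neuron sum was not closer, at 346 and 329.

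Between dpy-21 and wild-type XX, 0 of the 10 genes were counted as higher or lower, where 17.5% of 14791 genes were higher and 9.48% lower. Among the autosomal genes alone, the class that holds all 10 members, 12.1% were higher and 10.2% lower. The 10 genes lay between -0.18 (lsy-12, 13.05 RPKM in dpy-21 and 15.0 in wild type) and 0.24 (mrg-1, 42.2 RPKM in dpy-21 and 35.6 in wild type), with a median of 0.05. The next highest was mys-4 at 0.22, with 9.74 RPKM in dpy-21 and 8.24 in wild type. The other partner genes were trr-1 at 9.72 RPKM in dpy-21 and 9.18 in wild type, ssl-1 at 41.2 and 38.2, and epc-1 at 67.7 and 67.9.

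Over all 4 groups, mys-1 varied most, with its highest mean 3.61 times its lowest. The steadiest genes were ssl-1 (1.08 times) and epc-1 (1.11 times), followed by trr-1 (1.21), mrg-1 (1.22) and mys-4 (1.23). In between were mys-2 (1.30), sir-2.1 (1.42), lsy-12 (1.44) and cbp-1 (1.53). Some of these genes share sequence with other annotated genes, so reads could be split between them. ssl-1 holds the snoRNA genes Y111B2A.35 and Y111B2A.36 in its exons, and epc-1 overlaps gldi-8 by 100 bp. The ends of sir-2.1 and ugt-59 overlap by 22 bp on opposite strands.

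Other genes of the same pathways were taken from lists of 27 genes. Of these, 26 were in the table and passed the filter in each comparison, while mys-3 was not found under that name. In XO labelled mys-1(RNAi) over XO vector RNAi, 1 of 26 was higher by over 1.5-fold and 0 lower, where 5.28% of all genes were higher and 3.6% lower, and the median of the 26 was 0.04. That gene was C16A11.4, the homolog of the MOF-NSL subunit MBD-R2 of Drosophila, at 26.3 RPKM in XO labelled mys-1(RNAi) and 15.0 in XO vector RNAi (log2 ratio 0.77). It was also 1 of 3 genes counted as higher in XO vector RNAi over wild type, where 25.2% of all genes were higher, with 8.33 RPKM in wild type (0.78, or 0.61 after the median of all genes was subtracted). As these comparisons share the vector libraries, the levels are given side by side only: C16A11.4 was at 7.88 RPKM in dpy-21.

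The 6 further homologs of Tip60/NuA4 and SWR1 subunits (ruvb-1, ruvb-2, gfl-1, ekl-4, ing-3 and the histone variant htz-1) had 0 genes counted in any of the 3 comparisons. The shares of all genes counted in either direction were 5.28 and 3.6%, 25.2 and 11.1%, and 17.5 and 9.48% in the order of comparisons used above. Their ratios lay between -0.05 and 0.19 in XO labelled mys-1(RNAi) over XO vector RNAi, between -0.30 and 0.27 in XO vector RNAi over wild type and between -0.09 and 0.38 in dpy-21 over wild type. The 2 MOZ-type partners (lin-49 and lsy-13) and 4 other acetyltransferase genes also had 0 counted in each.

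Among 11 deacetylase genes, 0 were counted in XO labelled mys-1(RNAi) over XO vector RNAi. In dpy-21 over wild type, 3 were higher, where 17.5% of all genes were. These were the X-linked hda-4, sir-2.2 and sir-2.3. Of the 23 autosomal genes of the lists, 0 were higher, where 12.1% of all autosomal genes were. Of them, sir-2.3 was below 1 RPKM in wild type and passed the filter only through the groups where it was higher, so its count supports nothing. The class II deacetylase gene hda-4 was at 43.7 RPKM in dpy-21 and 22.3 in wild type (0.94), and the SIRT4-type genes sir-2.2 and sir-2.3 were at 52.8 and 1.64 RPKM in dpy-21 and at 31.3 and 0.669 RPKM in wild type (0.74 and 0.66). Of all X-linked genes, 44.2% were higher and 5.6% lower by over 1.5-fold in this comparison. In XO vector RNAi over wild type, sir-2.2 was at 49.0 RPKM in XO vector RNAi and 31.3 in wild type (0.63, or 0.46 after the median of all genes was subtracted, which is no longer past 1.5-fold), and sir-2.3 at 1.97 and 0.669 (0.83). The 2 genes are neighbouring paralogs, and reads could be split between them. The lists as a whole had a median of 0.25 in this comparison, beside the median of 0.17 over all genes.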

How the data were processed

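RNA-seq and H4K16ac ChIP-seq of whole L3 larvae were analysed from the tables the authors deposited. The submitters' processing notes name Trim Galore 0.3.7, Bowtie 1.1.1, MACS2 2.1.0, TopHat2 2.0.13, Cufflinks 2.2.1, HTSeq 0.6.0, DESeq2 1.6.3 and R 3.2.3. For RNA, the authors aligned non-stranded poly(A) reads with TopHat2 and deposited RPKM from Cufflinks as 1 mean per group. The deposited peak positions in bp come from MACS2 broad peaks on all replicates of a background together, in WS235 coordinates, the same assembly as WBcel235. The deposited table of the authors' own DESeq2 comparisons (fold changes and p-values) was not used. For the strain of the XO ChIP replicates the labels were followed.

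Genes were placed with Ensembl release 115 for WBcel235, which held 45871 of 46170 gene identifiers. The other 299 and 36 mitochondrial genes were left out of the autosomal, X-linked and peak shares. Those that passed the filter stayed in the counts over all genes. Ratios were log2 of (RPKM + 1) for genes whose mean over the compared groups was above 1 RPKM, counted past 1.5-fold. This is a description: group means allow no error between libraries and no new test, and depth is not given in the files used. Alternatives covered the pseudocount, the filter, the fold, the scaling, the promoter length, the overlap and the peak width. The members, the lists of related genes and the markers were chosen with earlier results of these data known. Named genes were the 10 members, related genes past 1.5-fold, overlapping genes, strain checks and the 3 genes nearest to mys-1. The scripts (Python 3.11.15, numpy 2.4.6, pandas 2.3.3, matplotlib 3.10.9) were tested on simulated data. Sequences came from the RefSeq copy of the same assembly.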

Additional observations from a re-analysis of the deposited data

How the results depend on the processing

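No paired analysis was possible because the files give group means and pooled peaks only, and for the same reason single replicates could not be left out. With log2 ratios past 0.32 counted in place of 0.58, 2 of the 10 genes were counted as higher and 1 as lower in XO vector RNAi over wild type, against 0 and 0. With a pseudocount of 0.1 RPKM, 5 of the 26 related genes were higher in XO vector RNAi over wild type, against 3, and 1 was lower in dpy-21 over wild type, against 0. For these counts and the promoter counts below, the share of all genes under the changed setting is not given. They therefore cannot be read against other genes. At 1.5-fold, 25.2% of all genes were already higher and 11.1% lower in XO vector RNAi over wild type. The other 46 counts of the 10 genes and all 8 promoter peak counts stayed within 1.5 times the reported count. Within that range, the XO promoter count fell from 10 to 8 genes when at least 250 bp had to lie inside peaks. Of the promoters, mys-1 had 134 bp and mys-2 had 96 bp inside XO peaks. With peaks of at least 500 bp the XO count was 9. The wild-type XX count rose from 7 to 8 with 1000 bp upstream, where mys-2 has a peak that ends 680 bp before its start. Membership of the class with a promoter peak in the XO list alone thus depended on these settings. The small XO peak at the mys-1 start fell away when peaks under 500 bp were left out, which put its share of the span at 0%, and the same held for mys-2 in wild-type XX. With 1000 bp added on either side of the gene, the wild-type XX share was 41.5% for cbp-1, 29.0% for epc-1, 8.71% for ssl-1 and 5.71% for mys-2. Group means and unscored peaks set the limit on all values.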

Other observations

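The nearest upstream protein-coding neighbours of the 10 genes were compared with them in XO vector RNAi over wild type. Among neighbours that start on the opposite strand, VC5.2 starts 1293 bp from mys-1 and was at 15.9 RPKM in XO vector RNAi and 6.38 in wild type (log2 ratio 1.20), where mys-1 had 0.12. In XO labelled mys-1(RNAi) and XO vector RNAi, VC5.2 was at 15.3 and 15.9 RPKM, where mys-1 differed. At mrg-1, spcs-2, which encodes a signal peptidase subunit and starts 374 bp away, was at 21.1 RPKM in XO vector RNAi and 42.0 in wild type (-0.96), where mrg-1 had 0.17, although the 2 starts lie inside the same peak in both backgrounds. The other opposite-strand pairs were C47D12.2 at 0.53 with trr-1 at 0.25, Y111B2A.12 at -0.30 with epc-1 at -0.08, and gcc-2 at -0.17 with cbp-1 at 0.52. Neighbours on the same strand had the same sign in the pair of fld-1 (-0.21) and mys-2 (-0.32) and opposite signs in the pairs of pges-2 (-0.10) and sir-2.1 (0.38), C34B7.1 (0.41) and mys-4 (-0.05), and hut-1 (-0.24) and ssl-1 (0.11). The neighbour of lsy-12, srab-17, was below 1 RPKM in all groups. These neighbours were named after their values were seen, and no test was run.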
